A study of Mus musculus with 6 samples.

Results

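Igf2, H19, Afp, Gpc3, Meg3, Mest, Peg3, Plagl1, Cdkn1c and Dlk1 are genes of the fetal liver and of genomic imprinting that act on growth. They were selected on their names and functions and not on a threshold of a measured value, and all 10 were found by symbol among the 28601 genes of the deposited table. The values known when they were chosen were earlier results of these data, in particular the H19 levels, with 1 library apart. Those levels are therefore given as a description without a test. For the other 9 genes the values come from a fit across all genes and are also read as descriptions.

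RNA was sequenced from the livers of 6 male mice fed CDAHFD, a high-fat diet with defined amino acids and no choline that causes fatty liver inflammation and fibrosis in mice. The groups were 3 wild-type (WT) mice and 3 mice with PRDX1 Cys52Ser, a substitution of the peroxidatic cysteine of the hydrogen peroxide-reducing enzyme peroxiredoxin 1. By the series design, feeding started when the mice were 8 weeks old and continued for 8 weeks. The treatment field of the labels instead counts up from 8 to 13 weeks, WT first, and taken literally it would leave genotype and feeding time unable to be told apart. All mice of both groups received the diet, and no mice on another diet were analysed here.

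Imprinted genes are transcribed from only the maternal or only the paternal chromosome, depending on DNA methylation marks set in the germ line. Many are highly active in the fetus and are shut down after birth: H19, Meg3 and Cdkn1c are expressed from the maternal copy, and Igf2, Mest, Peg3, Plagl1 and Dlk1 from the paternal copy. Afp and Gpc3 are not imprinted. They mark the fetal liver, fall silent in adult hepatocytes and reappear in regenerating liver and in hepatocellular carcinoma, hence the term oncofetal.

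Total counts per library were 53318196 to 73900923. Levels are CPM, the library-size-normalised count, scaled by TMM, a factor that removes composition differences between libraries; FPKM, the authors' value per transcript length, is used to compare genes. Prdx1 itself was 920 ± 57.2 CPM (WT) and 780 ± 105 CPM (Cys52Ser; adjusted p = 0.421 by edgeR, SD over n = 3 mice), which does not check the labels, since the change is a substitution. The Prdx1 groups did not overlap, by little (864 CPM in WT 1 against 859 CPM in Cys52Ser 1), and 4 of 17 alternative analyses called the gene lower. Albumin made 3.60% to 5.55% of the counts in WT and 8.08% to 8.49% in Cys52Ser. The hepatocyte marker Alb and 8 of the other 11 hepatocyte markers were higher in every Cys52Ser library than in every WT library. Of 14 stellate cell and fibroblast markers, 12 were lower in every Cys52Ser library. Over all tested genes, 29.7% had groups that did not overlap, in either direction. The stellate cell and fibroblast markers Des and Thy1 were instead highest in Cys52Ser 2 (60.1 and 8.56 CPM, against at most 20.8 and 6.76 CPM in WT). The library Cys52Ser 2 had the highest level of 8 of 8 smooth muscle and 10 of 10 skeletal muscle markers. In bulk RNA, fewer cells of a type and less RNA per cell cannot be told apart.

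Sequences are shown where they help to place a member. H19 is also the primary transcript of miR-675, whose hairpin lies within its exons, and the mature sequences are given with the seed (bases 2 to 8) in capitals. Both are from RefSeq on GRCm38.p6, minus strand, at chr7:142577112-142577133 for the 5p arm and chr7:142577078-142577099 for the 3p arm.
mmu-miR-675-5p: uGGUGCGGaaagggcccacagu
mmu-miR-675-3p: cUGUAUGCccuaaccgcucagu

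H19 (ENSMUSG00000000031, GRCm38 chromosome 7, 142575529 to 142578143), a long non-coding RNA expressed from the maternal copy, had the largest ratio of the highest to the second highest library among the 10 genes. Its level was 5.73, 177 and 13.2 CPM in WT replicates 1, 2 and 3, and 19.8, 19.2 and 13.5 CPM in Cys52Ser replicates 1, 2 and 3. The library WT 2 thus stood 8.96-fold above the next library and 30.9-fold above WT 1, while the other 5 libraries lay within 5.73 to 19.8 CPM. In counts, WT 2 held 10775 against 453 to 1293 elsewhere, so the difference is not a matter of few reads. FPKM also put WT 2 first, with 72.5 in WT 2 and 2.50 to 6.63 in the others.

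The group means were 65.4 ± 96.9 CPM (WT) and 17.5 ± 3.49 CPM (Cys52Ser) (SD over n = 3 mice). The fitted log2 fold change (Cys52Ser against WT) was -1.90 with a standard error of 1.32. It was -0.82 with limma on log2(FPKM + 0.5) and -0.37 with a replicate block. Without WT 2 it was 0.85. In CPM all 3 Cys52Ser libraries lay above both remaining WT libraries, by little in the case of Cys52Ser 3 (13.5 against 13.2 CPM in WT 3), whereas in FPKM Cys52Ser 3 (4.001) lay below WT 3 (4.91). The sign in this fit rested on 1 mouse.

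**Figure D1:**
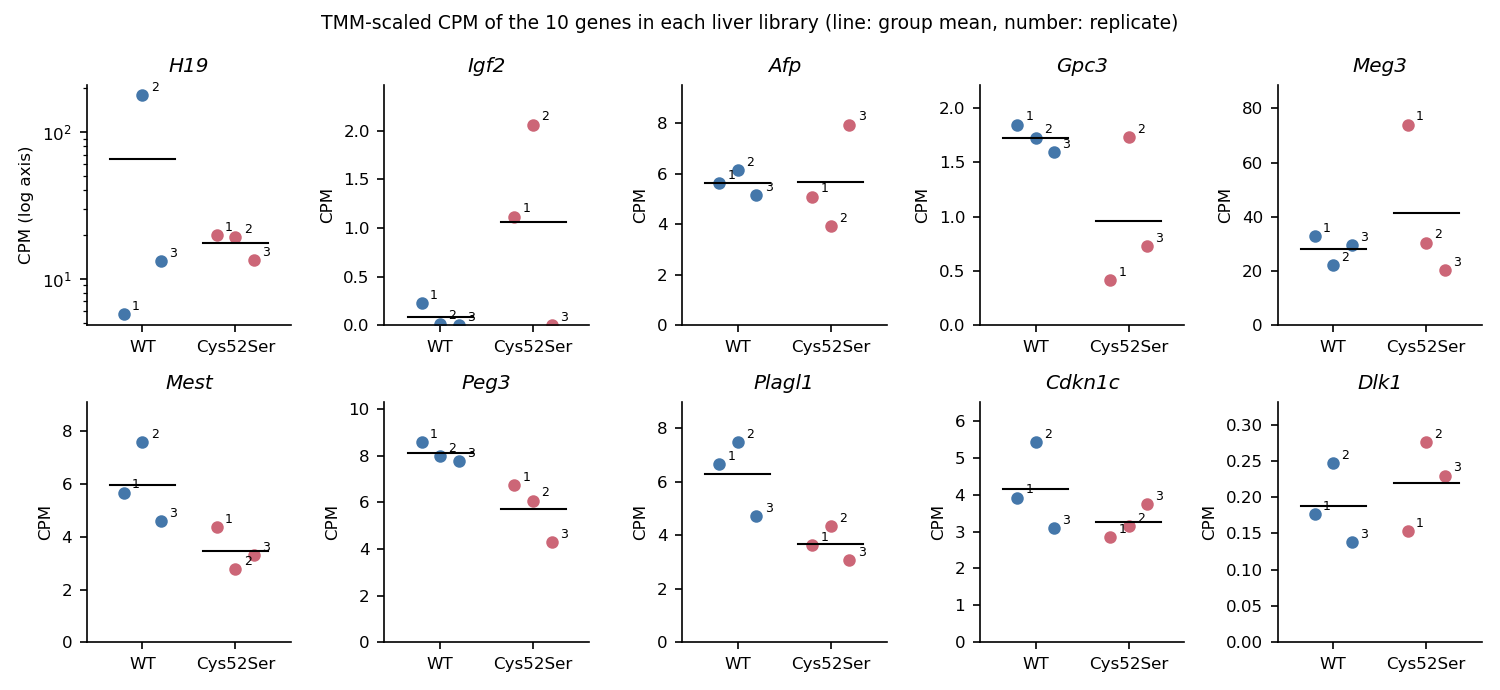
TMM-scaled CPM (y axis, one scale per gene, logarithmic for H19 and from 0 for the others) of the 10 genes in 3 WT (blue) and 3 Cys52Ser (red) livers; points are libraries with their replicate number and lines are group means. H19 in WT 2 lies at 177 CPM against 5.73 to 19.8 CPM in the other libraries, and Mest, Peg3 and Plagl1 do not overlap between groups.

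As a description of the library, since the H19 levels were known when the gene was chosen, genes were counted that stood in 1 library above all others. The measure was the highest CPM over the second highest plus 0.5 CPM, which lowers the ratio of genes at low levels. By this measure, among the 18648 tested genes, H19 alone stood in WT 2 at 8-fold or more above every other library. No gene did so in WT 1, WT 3 or Cys52Ser 1, 21 did in Cys52Ser 2 and 2 in Cys52Ser 3. At 4-fold, 122 genes stood out in Cys52Ser 2. In WT 2, 6 genes did. Besides H19 these were Gucy2c, the receptor of guanylin peptides, at 6.43 CPM against at most 0.746 CPM elsewhere, Cyp2a4, a steroid hydroxylase, at 277 CPM against at most 63.5 CPM, the unconventional myosin gene Myo7b, and the gene models Gm11843 and Gm10680. These 5 genes were named after their values were seen. Without the added 0.5 CPM, H19 was not alone at 8-fold in WT 2. The plain ratio to the next library was 8.96 for H19, 8.61 for Gucy2c, 8.26 for Gm10680 and 8.23 for Myo7b. It was 8.35 for Tgm4, a gene at 2.89 CPM in WT 2.

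**Figure D2:**
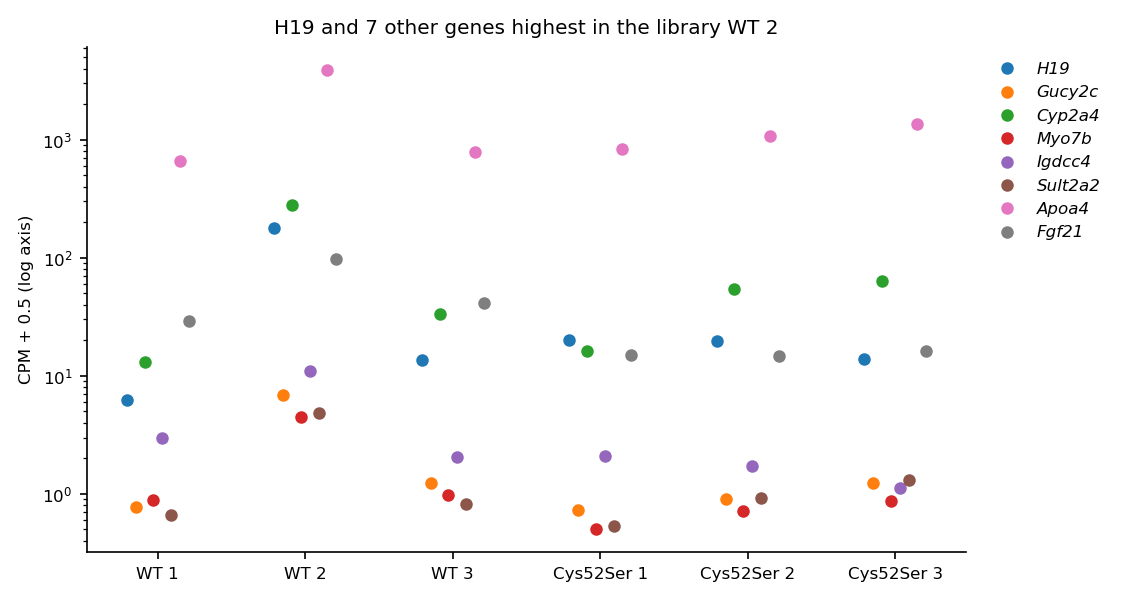
CPM + 0.5 (logarithmic y axis) of H19 and 7 other genes with their highest level in WT 2, by library; each point is 1 library. All 8 genes peak in WT 2, where H19 reached 177 CPM and Cyp2a4 277 CPM.

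The other members did not share the excess. WT 2 also had the highest level of Mest, Plagl1 and Cdkn1c, but only 1.34-fold, 1.13-fold and 1.38-fold above the next library. Afp and Gpc3 in WT 2 were 6.13 and 1.73 CPM, inside the range of the other libraries. Zhx2 and Zbtb20, zinc finger factors known to repress Afp after birth (Zhx2 also represses H19 and Gpc3), were 16.7 and 35.5 CPM in WT 2, against 14.6 to 20.3 CPM and 31.6 to 43.9 CPM in the other 5 libraries. None of the 10 skeletal muscle and none of the 8 smooth muscle markers peaked in WT 2, although its smooth muscle sum (121 CPM) was the highest of the WT livers (87.6 and 89.5 CPM in the others). The summed adipocyte markers were 133 CPM in WT 2 and 60.4 to 80.7 CPM elsewhere, through Cidec and Fabp4. These are lipid droplet and fatty acid-binding genes that fatty hepatocytes and macrophages also express. Adipoq, Lep, Plin1 and Cfd were low in every library, at most 0.221, 0.0506, 0.681 and 1.73 CPM. The part of the muscle and adipocyte markers in the H19 level was not tested. The 5 tested genes whose log2 level over the 6 libraries was most like that of H19 (Pearson r 0.97 to 0.99, members and gene models left out) were Ipo5, Cntnap1, Dusp2, Xpot and Ints6. Cntnap1 was 27.7 CPM in WT 2 and 7.84 to 10.5 CPM elsewhere, whereas Ipo5 was only 92.2 against 73.2 to 79.2 CPM. All 5 were picked among 18648 tested genes for their likeness to H19, so the shared peak in WT 2 follows from that choice.

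The separate row for Mir675 held 1 or 2 counts in every library, 2 of them in WT 2. Its hairpin is part of the H19 exons, and poly(A)-selected libraries do not measure the mature miRNA, so the 2 sequences above have no level here.

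Igf2 (ENSMUSG00000048583, chromosome 7, 142650766 to 142666816), the fetal insulin-like growth factor and the reciprocally imprinted neighbour of H19, was close to silent. It was 0.228, 0.016 and 0 CPM in WT 1 to 3 and 1.12, 2.06 and 0 CPM in Cys52Ser 1 to 3. The levels in Cys52Ser 1 and 2 were above those of all WT livers and Cys52Ser 3 was at 0, so the groups overlapped. WT 2, with its high H19, held 1 count of Igf2. The fitted log2 fold change was 3.60 with a standard error of 1.80 (edgeR adjusted p = 0.299).

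This difference did not outlast a change in how the locus was counted. Igf2 shares 3596 exonic bases on the same strand with Gm49394, an overlapping protein-coding gene model (142650769 to 142669942), and the 2 rows moved in opposite directions. Gm49394 had 123, 58 and 44 counts in WT 1 to 3 and 0, 0 and 24 counts in Cys52Ser 1 to 3, where Igf2 had 18, 1 and 0 against 73, 112 and 0. Summed, the locus stood at 1.17 ± 0.539 CPM (WT) and 1.21 ± 0.805 CPM (Cys52Ser) (SD over n = 3 mice). The fit of the summed row gave a log2 fold change of 0.047, with a 95% confidence interval from -1.38 to 1.48 (edgeR adjusted p = 0.976). Summing was chosen after the data were seen.

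**Figure D3:**
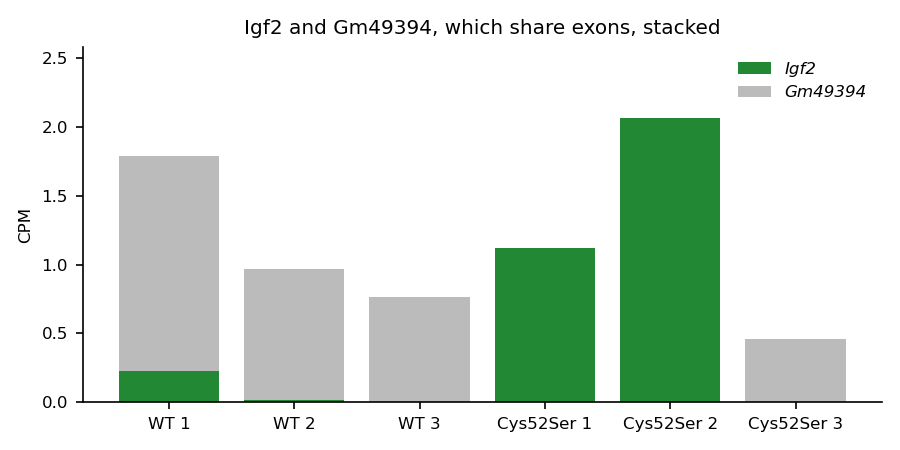
CPM (y axis, from 0) assigned to Igf2 (green) and to the overlapping model Gm49394 (grey), stacked for each of the 6 libraries. Counts of the locus sit on Gm49394 in the WT libraries and in Cys52Ser 3, and on Igf2 in Cys52Ser 1 and 2.

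Neither of the oncofetal protein genes passed the test. Afp (ENSMUSG00000054932, chromosome 5, 90490737 to 90508907), alpha-fetoprotein, the fetal counterpart of albumin, was 5.64, 6.13 and 5.16 CPM in WT 1 to 3 and 5.09, 3.92 and 7.94 CPM in Cys52Ser 1 to 3. The Cys52Ser libraries spanned the WT range on both sides. The means were 5.65 ± 0.485 and 5.65 ± 2.07 CPM (SD over n = 3 mice), with a log2 fold change of 0.0013 and a 95% confidence interval from -0.65 to 0.65 (edgeR adjusted p = 0.998). Its direction was no more settled: the sign was negative in 11 of 17 alternative analyses, at most -0.38.

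Of 32 tested genes that neighbour the members, 2 rose and none fell, against 2.52% of all tested genes called higher. In the albumin gene cluster, Afm, afamin, a vitamin E-binding plasma protein, rose 1.97-fold from 117 ± 22.4 to 230.05 ± 26.0 CPM (adjusted p = 0.0304 by edgeR; SD over n = 3 mice). The Afm call was lost without WT 2 or without any 1 of the Cys52Ser libraries. Alb stood at 43147 ± 12037 CPM (WT) and 93821 ± 9491 CPM (Cys52Ser) (adjusted p = 0.0573 by edgeR; SD over n = 3 mice), with groups that did not overlap. Gc, the vitamin D-binding protein of the same cluster, had a log2 fold change of 0.33 (edgeR adjusted p = 0.419) with groups that overlapped, and the flanking genes Rassf6 and Ankrd17 were not called. Whether these differences and that of Afp differ from each other was not tested.

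The Afp promoter is printed because factors that act on this gene were among the called genes, and it holds fewer CG pairs than the Plagl1, Mest and Peg3 promoters printed with those genes. RefSeq gives the window from 250 bases before to 50 after the transcription start (GRCm38.p6, plus strand, chr5:90490464-90490763). Capitals mark TATAAA, the TATA box, searched on both strands, with 1 match. Of all 32851 promoter windows of this length, 13.6% held TATAAA on either strand.
Afp promoter: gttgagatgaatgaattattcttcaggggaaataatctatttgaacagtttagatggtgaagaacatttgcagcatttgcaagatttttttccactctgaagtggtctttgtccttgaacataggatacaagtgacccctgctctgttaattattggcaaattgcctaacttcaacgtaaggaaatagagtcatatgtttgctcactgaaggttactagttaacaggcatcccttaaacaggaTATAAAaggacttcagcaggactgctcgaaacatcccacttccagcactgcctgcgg

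Of 17 tested regulators of Afp, 2 rose and none fell, where 2.52% of all tested genes were called higher. A gene was taken out of this list after its counts had been seen, and it is not reported here. The median log2 fold change of the list was 0.34 against -0.0032 over all tested genes. The forkhead factor Foxa3 was 37.3, 43.8 and 37.9 CPM in WT 1 to 3 and 109.8, 77.9 and 102.8 CPM in Cys52Ser 1 to 3, a rise of 2.44-fold (edgeR adjusted p = 0.0168). Hnf4a, the nuclear receptor that maintains hepatocyte identity, rose 1.90-fold (edgeR adjusted p = 0.0355), a call lost when any library but Cys52Ser 2 was left out. The repressors did not pass the test: Zhx2 had a log2 fold change of 0.25 (edgeR adjusted p = 0.265) with groups that did not overlap, and Zbtb20 one of -0.05 (edgeR adjusted p = 0.885). Without WT 2, Cys52Ser 1 or Cys52Ser 3, no regulator was called, and 1 was called without WT 1. Calls over all tested genes fell from 928 to 57, 31 and 28 without WT 2, Cys52Ser 1 and Cys52Ser 3, and to 409 without WT 1. The hepatocyte markers named above were higher in the same libraries, and their part in these values was not tested.

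Gpc3 (ENSMUSG00000055653, chromosome X, 52272426 to 52613950), the cell-surface proteoglycan glypican-3, was 1.85, 1.73 and 1.59 CPM in WT 1 to 3 and 0.413, 1.73 and 0.727 CPM in Cys52Ser 1 to 3. The WT livers were close together, and Cys52Ser 2 lay inside their range while the other Cys52Ser livers lay below it. The log2 fold change was -0.85 with a standard error of 0.55 (edgeR adjusted p = 0.42), and -1.60 without Cys52Ser 2 (adjusted p = 0.0977). Cys52Ser 2 is the library with the highest muscle markers, at a summed smooth muscle marker level of 365 CPM against 49.3 to 121 CPM elsewhere; their part in the Gpc3 value was not tested. Gpc4, the glypican gene beside Gpc3 on the X chromosome, rose 1.61-fold (edgeR adjusted p = 0.0425), a call lost in 10 of 17 alternatives, among them leaving out any library but WT 1.

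The paternally expressed genes Mest, Peg3 and Plagl1 were lower in every Cys52Ser liver than in every WT liver, and they were the only members whose groups did not overlap (3 of 10, a share near the 29.7% of all tested genes, so it does not set the list apart). Plagl1 (ENSMUSG00000019817, chromosome 10, 13060504 to 13130982), a zinc finger factor that regulates other imprinted genes, was 6.64, 7.48 and 4.71 CPM in WT 1 to 3 and 3.63, 4.34 and 3.06 CPM in Cys52Ser 1 to 3. The log2 fold change was -0.77 with a standard error of 0.25 (edgeR adjusted p = 0.124). Mest (ENSMUSG00000051855, chromosome 6, 30723547 to 30748462), an alpha/beta hydrolase gene linked to growth, was 5.67, 7.58 and 4.57 CPM in WT and 4.34, 2.76 and 3.29 CPM in Cys52Ser. In both genes WT 3 was the lowest WT library, and the gap to the highest Cys52Ser library was narrow.

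The log2 fold change of Mest was -0.78 with a standard error of 0.28 (edgeR adjusted p = 0.151). Mest shares 912 exonic bases with Copg2 on the opposite strand, and no source used here says if reads were counted by strand; Copg2 itself was 31.3 ± 1.39 and 32.1 ± 2.47 CPM (SD over n = 3 mice). Peg3 (ENSMUSG00000002265, chromosome 7, 6703892 to 6730421), a large zinc finger protein gene, was 8.59, 7.97 and 7.78 CPM in WT and 6.75, 6.07 and 4.31 CPM in Cys52Ser. Its log2 fold change was -0.51 with a standard error of 0.21 (edgeR adjusted p = 0.199). All 3 genes kept a negative sign in 17 of 17 alternatives, but with groups that do not overlap a kept sign says nothing of stability.

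Of the 9 members other than H19, 0 passed edgeR's quasi-likelihood test at an adjusted p of 0.05, where 4.98% of all tested genes did. At an unadjusted p of 0.05, 3 of 9 did (Mest, Peg3 and Plagl1), against 22.4% of all tested genes. DESeq2 called 1, Plagl1 (adjusted p = 0.0484), and limma on log2(FPKM + 0.5) called 1, Mest (adjusted p = 0.0476). With library totals in place of TMM, edgeR called 2, Mest and Plagl1. Under that scaling, however, the median log2 fold change over all tested genes was itself -0.35. It was -0.24 in the limma fit on log2(FPKM + 0.5), which had no TMM factors either.

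Stromal markers were lower in the same libraries as these 3 genes. The summed level of the 14 stellate cell and fibroblast markers spanned 1705 to 2932 CPM among WT and 1057 to 1173 CPM among Cys52Ser livers, and none of these markers was at 0 in all libraries. Of 8 mesothelial markers, 5 were also lower in every Cys52Ser library, where 29.7% of all tested genes had groups that did not overlap. Krt8 and Krt18 were among them. So were Wt1, Upk3b and Upk1b, at no more than 3.98, 2.72 and 0.670 CPM in any library. The groups overlapped for Msln, Lrrn4 and Gpm6a. Msln was highest in Cys52Ser 2, at 11.8 CPM against 1.21 to 3.28 CPM in WT. The mesothelial sum was 1021 to 1265 CPM among WT and 615 to 666 CPM among Cys52Ser livers. Most of it came from Krt8 and Krt18, keratins of other epithelia too, so the sum is not a measure of mesothelial cells alone. The part of stromal and mesothelial cells in the values of Mest, Peg3 and Plagl1 was not tested.

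The promoters of these 3 genes are printed as examples of the promoter of a paternally expressed gene. Each lies in a CpG-rich stretch that, as background, is methylated on the maternal copy. Capitals mark CG, which reads the same on both strands; 94.6% of all promoter windows hold at least 1, and the median window holds 7. The windows are from RefSeq on GRCm38.p6: Plagl1 on the plus strand at chr10:13090582-13090881, Mest on the plus strand (1 of its 3 windows, with 17 CG pairs) at chr6:30737800-30738099 and Peg3 on the minus strand at chr7:6730370-6730669.
Plagl1 promoter: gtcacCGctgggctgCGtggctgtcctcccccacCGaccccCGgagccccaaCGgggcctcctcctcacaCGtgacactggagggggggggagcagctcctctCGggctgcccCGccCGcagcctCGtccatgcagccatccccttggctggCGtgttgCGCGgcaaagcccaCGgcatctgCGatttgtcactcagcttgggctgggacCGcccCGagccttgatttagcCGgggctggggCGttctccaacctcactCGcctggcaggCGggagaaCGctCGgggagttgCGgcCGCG
Mest promoter: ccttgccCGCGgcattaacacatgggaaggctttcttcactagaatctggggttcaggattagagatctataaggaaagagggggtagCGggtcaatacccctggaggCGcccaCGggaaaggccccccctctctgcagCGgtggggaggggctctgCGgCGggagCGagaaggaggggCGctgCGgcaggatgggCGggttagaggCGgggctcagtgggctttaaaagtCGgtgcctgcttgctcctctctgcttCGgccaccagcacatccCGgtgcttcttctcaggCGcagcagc
Peg3 promoter: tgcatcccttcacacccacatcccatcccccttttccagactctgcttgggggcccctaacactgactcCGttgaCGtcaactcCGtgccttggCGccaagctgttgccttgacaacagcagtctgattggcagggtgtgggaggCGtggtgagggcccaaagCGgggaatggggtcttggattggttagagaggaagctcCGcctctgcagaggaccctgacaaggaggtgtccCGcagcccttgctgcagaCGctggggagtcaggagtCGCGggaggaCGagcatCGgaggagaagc

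The Plagl1, Mest and Peg3 windows held 26, 17 and 13 CG pairs, and 16.9%, 31.4% and 37.9% of all windows held as many or more. For Mest a window with the most CG pairs was printed. Another Mest window held 8, and 48.65% of all windows held as many or more. Afp had 3 and Gpc3 30, the highest of the 8 members with a window in the table. Members with many CG pairs were thus found both among the genes with groups apart and among those without.

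Cdkn1c (ENSMUSG00000037664, chromosome 7, 143458339 to 143461050), which encodes the cell cycle inhibitor p57, was 3.92, 5.43 and 3.08 CPM in WT 1 to 3 and 2.86, 3.15 and 3.75 CPM in Cys52Ser 1 to 3. The groups overlapped, with a log2 fold change of -0.35 and a standard error of 0.28 (edgeR adjusted p = 0.528). Among 18 tested proliferation genes, Rrm2, a ribonucleotide reductase subunit, rose 2.42-fold (edgeR adjusted p = 0.0168). The remaining 17 did not pass, where 2.52% of all tested genes were called higher. Of the 18, 15 had a positive and 3 a negative log2 fold change. The list median was 0.23, against -0.0032 over all tested genes. The Rrm2 call was lost without WT 2 (adjusted p = 0.0561) or Cys52Ser 3 (adjusted p = 0.066).

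Dlk1 and Meg3 belong to one imprinted domain on chromosome 12, in which the paternal copy makes the protein-coding Dlk1 and the maternal copy a series of non-coding RNAs, Meg3, Rian and Mirg. Meg3 (ENSMUSG00000021268, 109541001 to 109571721) was 32.97, 22.2 and 29.5 CPM in WT 1 to 3 and 74.0, 30.5 and 20.2 CPM in Cys52Ser 1 to 3. A single library, Cys52Ser 1, stood 2.24-fold above the next. The log2 fold change was 0.56 with a standard error of 0.47 (edgeR adjusted p = 0.557), and it turned to -0.16 without Cys52Ser 1.

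Rian, the small nucleolar RNA host downstream of Meg3, shared the peak in Cys52Ser 1 but not the rest of the pattern, at 30.5, 22.7 and 31.5 CPM in WT and 60.3, 17.6 and 16.9 CPM in Cys52Ser. Its levels in Cys52Ser 2 and 3 were below all WT libraries, and without Cys52Ser 1 its log2 fold change was -0.71 (adjusted p = 0.125 by edgeR). Mirg, the miRNA host further downstream, was also highest in Cys52Ser 1, at 2.49 CPM, but only 1.12-fold above WT 2. Neither passed the test (edgeR adjusted p = 0.898 and 0.674). The paternally expressed Dlk1 (ENSMUSG00000040856, 109452823 to 109463336), a Notch-related ligand of fetal hepatoblasts, did not share the excess: it held 10 counts in Cys52Ser 1 and 8 to 15 in the other libraries. At 0.139 to 0.276 CPM it was near the limit of detection in all 6 livers, and its log2 fold change of 0.22 had a standard error of 0.62 (edgeR adjusted p = 0.878). Lymphocyte markers were also highest in Cys52Ser 1, 6 of 8 genes, with a summed level of 27.2 CPM against 13.8 to 17.2 CPM elsewhere; their part in the Meg3 and Rian values was not tested.

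**Figure D4:**
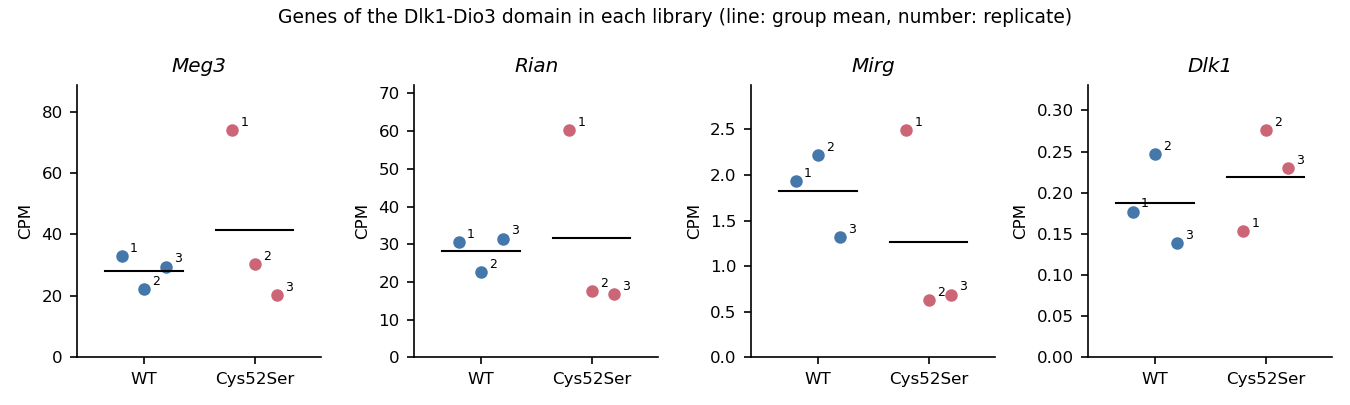
CPM (y axis, from 0, one scale per gene) of Meg3, Rian, Mirg and Dlk1 in 3 WT (blue) and 3 Cys52Ser (red) livers; points are libraries with their replicate number and lines are group means. Cys52Ser 1 is the highest library for Meg3 (74.0 CPM), Rian (60.3 CPM) and Mirg (2.49 CPM), not for Dlk1.

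Per transcript length the 10 genes differed widely. H19 had the highest mean FPKM in both groups (26.6 ± 39.7 in WT, 5.61 ± 1.41 in Cys52Ser; SD, n = 3 each), and without WT 2 its WT libraries were at 2.50 and 4.91. Cdkn1c, Afp, Meg3 and Mest followed in WT at mean FPKM of 2.03, 1.67, 1.56 and 1.504, with SDs of 0.239 to 0.655 that cover the steps between them. Plagl1, Gpc3 and Peg3 were at 0.805, 0.640 and 0.597 FPKM, again within their spread of each other. Dlk1 and Igf2 were lowest, at 0.0312 and 0.0132 FPKM. In Cys52Ser the second level was Meg3, at 1.80 ± 1.22 FPKM (SD, n = 3), through Cys52Ser 1.

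Among 39 other tested imprinted genes, 3 fell and none rose, where 2.46% of all tested genes were called lower; the median log2 fold change was -0.12. Grb10, an adaptor that inhibits insulin and insulin-like growth factor receptors, was 22.1, 16.95 and 15.1 CPM in WT and 7.62, 9.44 and 7.39 CPM in Cys52Ser, 2.21-fold lower (edgeR adjusted p = 0.0249). Sgce, epsilon-sarcoglycan, was 1.92-fold lower (edgeR adjusted p = 0.045), and Dcn, the collagen-binding proteoglycan decorin, 1.74-fold lower (edgeR adjusted p = 0.0442). Dcn is also a stellate cell marker, and it is imprinted in mouse placenta rather than in liver. The count of this list rested on single libraries: no gene was called without WT 1, WT 2, Cys52Ser 1 or Cys52Ser 3, and 1 without Cys52Ser 2 or with a replicate block. This does not set the list apart. Over all tested genes the calls fell from 928 to 409, 57, 31 and 28 without WT 1, WT 2, Cys52Ser 1 and Cys52Ser 3.

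In the insulin-like growth factor axis 1 of 19 tested genes rose and 2 fell, against 2.52% and 2.46% of all tested genes. Igfals, the liver-made subunit that stabilises circulating growth factor complexes, was 33.6, 34.5 and 60.8 CPM in WT and 110.07, 80.997 and 109.7 CPM in Cys52Ser, a rise of 2.33-fold (edgeR adjusted p = 0.0467), a call lost when any library but WT 3 was left out. Igfbp7, a binding protein made by vascular and stellate cells, was 2.14-fold lower (edgeR adjusted p = 0.0389), and Grb10 is the other that fell. The adult factor Igf1 was 310 ± 66.9 and 438 ± 51.2 CPM (adjusted p = 0.17 by edgeR; SD over n = 3 mice). The receptors Igf1r and Igf2r, the latter itself imprinted, had log2 fold changes of -0.44 and -0.19 (edgeR adjusted p = 0.54 and 0.367). The fetal Igf2 mRNA-binding proteins Igf2bp1 and Igf2bp3 were too low to be tested, at most 0.221 and 0.153 CPM in any library, and Igf2bp2 was 6.04 ± 0.483 and 4.90 ± 1.97 CPM (adjusted p = 0.612 by edgeR; SD over n = 3 mice). Without WT 2, Cys52Ser 1 or Cys52Ser 3, no gene of the axis was called, and 1 was called without WT 1. Calls over all tested genes fell from 928 to 57, 31 and 28 without WT 2, Cys52Ser 1 and Cys52Ser 3, and to 409 without WT 1.

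Of 25 other tested fetal liver and oncofetal genes 3 fell and none rose, where 2.46% of all tested genes were called lower. The median log2 fold change was -0.30, against -0.0032 over all tested genes. Ly6d, a surface protein of the lymphocyte antigen 6 family, was 106, 163 and 95.4 CPM in WT and 20.3, 30.1 and 15.2 CPM in Cys52Ser, 5.55-fold lower (edgeR adjusted p = 0.018). The tight junction gene Cldn6 was 5.30-fold lower (edgeR adjusted p = 0.0424) and Mdk, the heparin-binding growth factor midkine, 4.98-fold lower (edgeR adjusted p = 0.029). Of 10 cholangiocyte markers, 6 were also lower in every Cys52Ser library, where 29.7% of all tested genes had groups that did not overlap. Krt19 and Muc1 were instead highest in Cys52Ser 2 (61.7 and 16.8 CPM, against at most 25.4 and 11.3 CPM in WT). The part of cholangiocytes in these values was not tested. Among 12 tested genes that set or keep methylation imprints, Dnmt3a, a de novo DNA methyltransferase, fell 1.70-fold from 55.9 ± 2.81 to 32.97 ± 5.32 CPM (adjusted p = 0.0299 by edgeR; SD over n = 3 mice), and the other 11 did not pass. The fetal list had 0 calls without WT 2, Cys52Ser 1 or Cys52Ser 3 and 1 without WT 1. Dnmt3a was not called without any 1 of these 4 libraries. Calls over all tested genes fell from 928 to 57, 31 and 28 without WT 2, Cys52Ser 1 and Cys52Ser 3, and to 409 without WT 1.

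**Figure D5:**
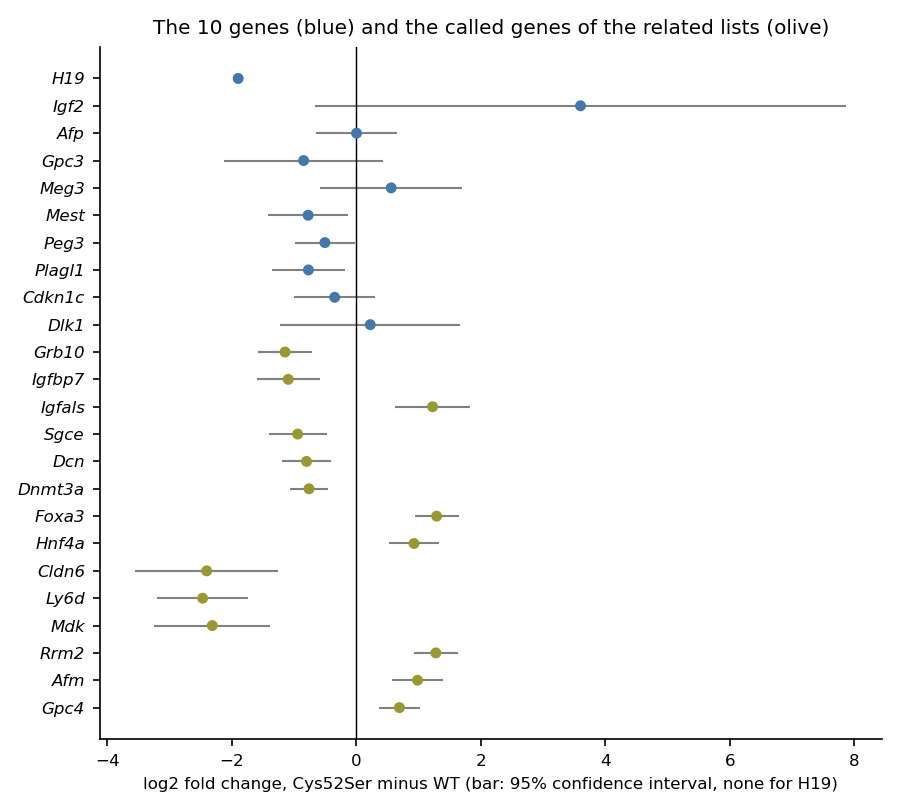
Log2 fold change, Cys52Ser minus WT (x axis), with 95% confidence intervals (bars) for 9 of the 10 genes (blue; H19 has none) and for the called genes of the related lists (olive), from edgeR on 3 against 3 libraries. H19 is drawn as a point without an interval, and the interval of Igf2 (-0.67 to 7.87) is the widest of those drawn.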

How the data were processed

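Poly(A)-selected, strand-marked libraries (dUTP method) of 6 livers were sequenced as paired reads, per the labels' protocols. Tools without roles, per the submitters' processing notes, were HISAT2 2.0.4, StringTie 1.3.4d, cutadapt 1.9, UMI-tools, edgeR and DESeq2, with mm9 as build. Per the file headers, each library has a count, treated here as an estimated count, and an FPKM for every gene, both deposited by the authors. Counts of 89.9% to 92.4% of the single-transcript genes with at least 1000 counts equalled FPKM × length × a constant to within 1%, which read counts and estimates from coverage would both do. They are whole numbers and needed no rounding. Positions are given as GRCm38, because 90.01% of the identifiers found in GENCODE M21 had identical coordinates there; 6 of the 10 members did, and the other 4 had the same start.

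edgeR 4.0.16 in R 4.3.3 was the test (TMM factors, filterByExpr at its minimum count of 10, robust quasi-likelihood, with genotype alone in the model), with Benjamini-Hochberg adjustment over 18648 genes at 0.05; a design written for raw counts was used on these estimates. All 10 members passed the filter on low counts. The standard error is the log2 fold change divided by the square root of F. The function was tested on simulated data. No libraries agreed within sampling noise (chi-square per degree of freedom at least 86.9). Nothing says whether the mice came from separate litters, so p-values measure only the spread between these samples. Counting error is not the main limit, except for Dlk1 and Igf2.

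Members and lists were chosen with earlier results of these data known. Named were all members, called genes of the related lists (at most 5 per direction), a fixed set (Zhx2, Zbtb20, Igf1, Igf1r, Igf2r, Igf2bp1, Igf2bp2, Igf2bp3, Grb10, Rian, Mirg, Alb and Prdx1) and the 5 genes most like H19 and Afp. Alternatives were RLE, upper quartile and library-total scaling, other filters, non-robust fits, DESeq2 1.42.0, limma 3.58.1 on log2(FPKM + 0.5, 0.1 or 1), a replicate block and leaving out each library.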

Additional observations from a re-analysis of the deposited data

How the results depend on the processing

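Of the 9 members other than H19, 0 were called in the main analysis (edgeR). The number was 2 with library totals alone, 1 with DESeq2, and 1 with limma on FPKM at pseudocounts of 0.5 and of 0.1; it was 0 in the other alternatives, leaving out each library included. Over all genes, 928 were called. The count was 3017 with library totals alone, 2737 with DESeq2 and 2903, 2954 and 2794 with limma at pseudocounts of 0.5, 0.1 and 1. Leaving out 1 library gave 28 to 790. Of the calls, 50.5% were higher, but 9.7% with library totals and 11.2% to 11.8% with limma on FPKM. Calls grew in most lists, but the imprint maintenance list stayed at 1 with library totals, DESeq2 and limma, and the proliferation list at 1 with library totals and limma. The insulin-like growth factor axis went from 3 to 6 with library totals, 6 with DESeq2 and 5 with limma at each pseudocount; the other imprinted genes from 3 to 8, 6 and 7. The Afp regulators went from 2 to 5, 7 and 4. The fetal list went from 3 to 7 with library totals, 8 with DESeq2 and 7, 7 and 5 with limma at 0.5, 0.1 and 1, and the neighbours of the members from 2 to 6, 6 and 5. Proliferation genes went from 1 to 2 with DESeq2. The fit with a replicate block gave 729 calls and none among the 9 members. Libraries with the same replicate number had correlations of deviations of 0.0051, 0.166 and 0.0642, and WT 3 correlated best with Cys52Ser 1, so the numbers were not taken to pair the mice. The log2 fold change of H19 was -0.37 with the replicate block. For Afp, Dlk1, Meg3 and H19 the sign changed in 11 of 17, 2 of 12, 1 of 17 and 1 of 17 alternatives. With 8 to 15 counts per library, depth limits what can be said of Dlk1; its 95% confidence interval ran from -1.22 to 1.67.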

Other observations

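An oncofetal gene outside the 10 also stood apart in 1 library, Cys52Ser 2. It was not alone there. Of 18648 tested genes, 122 stood in Cys52Ser 2 at 4-fold or more above every other library, and 21 at 8-fold or more. The measure was again the highest CPM over the second highest plus 0.5 CPM. Hmga2, a chromatin architectural factor of embryonic tissue that is re-expressed in tumours, was 36.7 CPM in Cys52Ser 2, against 1.56 to 2.41 CPM in the WT livers, 2.25 CPM in Cys52Ser 1 and 0.0766 CPM in Cys52Ser 3. In counts these were 1996 in Cys52Ser 2 and 4 to 147 elsewhere. The log2 fold change was 2.76 with a standard error of 1.77 (edgeR adjusted p = 0.443). Its relative Hmga1 was also highest in Cys52Ser 2, but only at 69.7 CPM against 32.9 to 51.9 CPM elsewhere. Hmga2 was named after its values were seen, and Cys52Ser 2 is the library with the highest muscle markers. Its summed exocrine pancreas markers were also highest, at 217 CPM against 11.7 to 42.5 CPM elsewhere. This came through Clps (203 CPM), and 3 of the 8 pancreas markers in the data were highest there. The part of the muscle and pancreas markers in the Hmga2 level was not tested.

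The library with the high H19 also held the highest level of several metabolic genes. Apoa4, an apolipoprotein of lipid transport, was 3893 CPM in WT 2 and 654 to 1370 CPM elsewhere. Fgf21, a hormone of the fasting and stress response, was 97.3 CPM in WT 2 and 14.2 to 40.9 CPM elsewhere. The sulfotransferase gene Sult2a2 was 4.31 CPM against at most 0.804 CPM. These genes were chosen after their values were seen.

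Peg10 and Ndn, paternally expressed imprinted genes that were not called, had groups that did not overlap, as did 29.7% of all tested genes. Both were picked with their values known, and they do not stand for their list. Of the 39 other tested imprinted genes, 17 had a positive and 22 a negative log2 fold change. Ube3a, Slc22a18 and Pon3 of that list had groups apart in the other direction (log2 fold changes 0.24, 0.35 and 0.37). Peg10 had a log2 fold change of -1.74 (edgeR adjusted p = 0.135) and Ndn, necdin, one of -1.02 (edgeR adjusted p = 0.148). Afp was most like Jund, Prox2, Cntd1, Srsf9 and Grcc10 over the 6 libraries (Pearson r 0.97 to 0.99). Jund, an AP-1 subunit, was 107 CPM in Cys52Ser 2 and 201 CPM in Cys52Ser 3, which were also the lowest and the highest library for Afp. These genes were picked among 18648 tested genes for their likeness to Afp, so the shared order follows from that choice.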
